A study of Mus musculus with 10 samples.

Results

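The genes described here encode the nuclear-encoded subunits of respiratory complexes I, III and IV and of the ATP synthase, measured in mouse embryonic stem cells, hepatocyte-like cells made from embryonic stem cells, and adult hepatocytes. Members were taken by symbol from array features (transcript clusters) annotated with exactly 1 gene. The symbols begin with Nduf and a subunit letter (a, b, c, s or v), with Uqcr, with Cox4 to Cox8, or with Atp5. Genes with several clusters are represented by their brightest, taken on the average of the 10 arrays. This gave 76 of the 22180 genes measured: 31 of complex I, 7 of complex III, 19 of complex IV, 17 of the ATP synthase, and 2 processed-pseudogene entries, Atp5c1-ps and Uqcrh-ps1. Ndufa4 and its paralogue Ndufa4l2 are counted with complex IV. No filter on low values was set, so all 76 were tested, and 11 of them averaged under 5.5 on the log2 scale of the arrays, near the array medians of 4.91 to 5.07 or below.

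Total RNA from 10 samples was hybridised to Affymetrix arrays. There were 4 arrays of undifferentiated embryonic stem cells, 3 of hepatocyte-like cells differentiated from such stem cells, and 3 of adult hepatocytes from liver. All 10 arrays carry a strain label that puts the transgene Tg(CAG-luc, GFP)L2G85Chco on a C.FVB background, with the substrain code FathJ. The transgene joins luciferase and green fluorescent protein to the ubiquitous CAG promoter, and the stem cells and adult hepatocytes carry it too. All 10, the hepatocytes included, are labelled as below passage 20, and no age is given. Replicates are called biological without saying whether they were separate cultures or animals, so a p-value here weighs a difference only against the spread of these samples, which may be technical. The levels are the deposited log2 values, and each comparison is a difference of group means on that scale, where 1 stands for 2-fold.

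The respiratory chain passes electrons from NADH and succinate to oxygen and pumps protons across the inner mitochondrial membrane, and the ATP synthase lets them flow back to make ATP. Complex I takes electrons from NADH, complex III passes them from ubiquinol to cytochrome c, and complex IV, cytochrome c oxidase, gives them to oxygen. Several small subunits of complex IV exist as a widely expressed form and a second form restricted to heart and skeletal muscle, testis, lung or other tissues. Adult hepatocytes are rich in mitochondria.

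The labelled cell types were checked against their defining genes. All 7 hepatocyte markers (Alb, Apoa1, Ttr, Tat, Cyp2e1, Cps1, Pck1) were higher in adult hepatocytes than in stem cells by 6.07 to 8.54, and their mean level was 12.60 to 12.68 on the adult arrays. In the hepatocyte-like cells only Ttr and Apoa1 of these 7 rose over stem cells, and all 7 were lower than in adult hepatocytes. The mean of the 7 was 5.74, 6.15 and 7.46 on the hepatocyte-like arrays, so that replicate 3 stood above replicates 1 and 2. Alb itself, serum albumin, read 4.85, 5.14 and 10.80 there, and results that rest on replicate 3 are also given without it. All 5 pluripotency markers were lower in both other groups than in stem cells. Their mean was 5.22, 4.97 and 5.78 on the hepatocyte-like arrays, so that replicate 3 was highest here too. On these arrays Nanog read 5.08, 5.09 and 7.12, and Sox2 read 5.38, 4.68 and 6.36. Esrrb was lowest on replicate 3, at 4.46. Acta2, the smooth muscle actin, averaged 12.18 in the hepatocyte-like cells against 6.42 in adult hepatocytes and 5.86 in stem cells. Of 5 pericyte and smooth muscle markers it was the only 1 called between hepatocyte-like and adult cells. Rgs5 averaged 8.17 in hepatocyte-like cells, 7.94 in adult hepatocytes and 3.95 in stem cells, and was called higher in both than in stem cells. Pdgfrb, Myh11 and Cspg4 passed no test. Markers of other liver cells were also higher in the adult samples than in stem cells. Of 4 macrophage markers, Adgre1, Clec4f and Cd5l were called higher, by 1.70, 2.13 and 3.48, and Cd68 lower. Of 4 endothelial markers, Stab2, Kdr and Cdh5 were called higher, by 3.35, 3.82 and 3.55, and Pecam1 lower. In hepatocyte-like cells against stem cells, Kdr and Cdh5 were called higher too, by 2.63 and 1.72. There Pecam1 was called lower, at -3.07, and Stab2 passed no test. The 4 endothelial markers had a mean of 7.93 to 8.39 on the adult arrays, 6.02 to 6.53 on the hepatocyte-like arrays and 5.81 to 6.21 on the stem cell arrays. The macrophage mean was 6.39 to 6.68, 4.86 to 5.15 and 5.28 to 5.46 in the same order. The part of these cells in the subunit levels was not tested. In RNA of whole samples, fewer cells of a type and less RNA per cell cannot be told apart.

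The subunits with the largest differences were restricted forms of complex IV. Cox7a1 and Cox7b2 were highest in stem cells, and Cox6b2 was lowest in adult hepatocytes. A gene was said to have passed the test, and to have risen or fallen, at an adjusted p under 0.05 in limma (moderated test, Benjamini-Hochberg over 22180 genes), and was called where it also differed by at least 2-fold. Of the 8 restricted forms measured, 3 were called lower in adult hepatocytes than in stem cells (Cox7a1, Cox6b2 and Cox7b2). In the hepatocyte-like cells 2 were called lower than in stem cells (Cox7a1 and Cox7b2), and 1, Cox6b2, was called higher than in adults. Without hepatocyte-like replicate 3 these calls held, at -3.09 for Cox7a1 and -2.46 for Cox7b2 against stem cells and 1.92 for Cox6b2 against adults. Over all 22180 genes, 15.6% were called lower in adult hepatocytes than in stem cells, 7.35% lower in hepatocyte-like than in stem cells, and 13.9% higher in hepatocyte-like than in adult cells.

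Cox7a1 (transcript cluster 17476288) encodes the heart and skeletal muscle form of subunit 7a. It read 8.19, 9.38, 8.44 and 9.53 in stem cells, 5.78, 5.80 and 6.21 in hepatocyte-like cells, and 5.56, 5.74 and 5.58 in adult hepatocytes. Every stem cell array lay above every other array, stem cell replicates 2 and 4 were the highest, and the hepatocyte-like arrays lay just above the adult ones. The level fell by 3.26 ± 0.29 (SE) in adult hepatocytes (9.55-fold, limma adjusted p = 1.18e-06). It fell by 2.95 ± 0.29 in hepatocyte-like cells (7.74-fold, limma adjusted p = 9.37e-06). The hepatocyte-like and adult groups differed by 0.30 (95% interval -0.38 to 0.98, limma adjusted p = 0.503).

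Cox7b2 (17448589), the testis form of subunit 7b, was also highest in stem cells. It read 4.33, 6.13, 4.63 and 6.18 in stem cells, 3.03, 2.68 and 3.23 in hepatocyte-like cells, and 3.61, 2.80 and 3.26 in adult hepatocytes. Again stem cell replicates 2 and 4 were the highest and no stem cell array overlapped the other groups. It fell by 2.10 ± 0.42 in adult hepatocytes (limma adjusted p = 0.00108) and fell by 2.34 ± 0.42 in hepatocyte-like cells (limma adjusted p = 0.000897). Outside stem cells Cox7b2 lay below the median feature, where a fold change is uncertain.

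Cox6b2 (17485904), the testis form of subunit 6b, was lowest in adult hepatocytes. It read 7.48, 8.70, 7.61 and 8.19 in stem cells, 7.60, 7.77 and 7.76 in hepatocyte-like cells, and 5.35, 5.81 and 6.12 in adult hepatocytes. The adult arrays lay below all others, while the hepatocyte-like arrays fell within the stem cell range. From stem cells to adult hepatocytes it fell by 2.24 ± 0.28 (4.71-fold, limma adjusted p = 2.02e-05). Hepatocyte-like cells stood 1.95 ± 0.29 above adult hepatocytes (3.86-fold, limma adjusted p = 0.000168). Hepatocyte-like and stem cells differed by -0.29 (95% interval -0.89 to 0.31, limma adjusted p = 0.523).

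**Figure D1:**
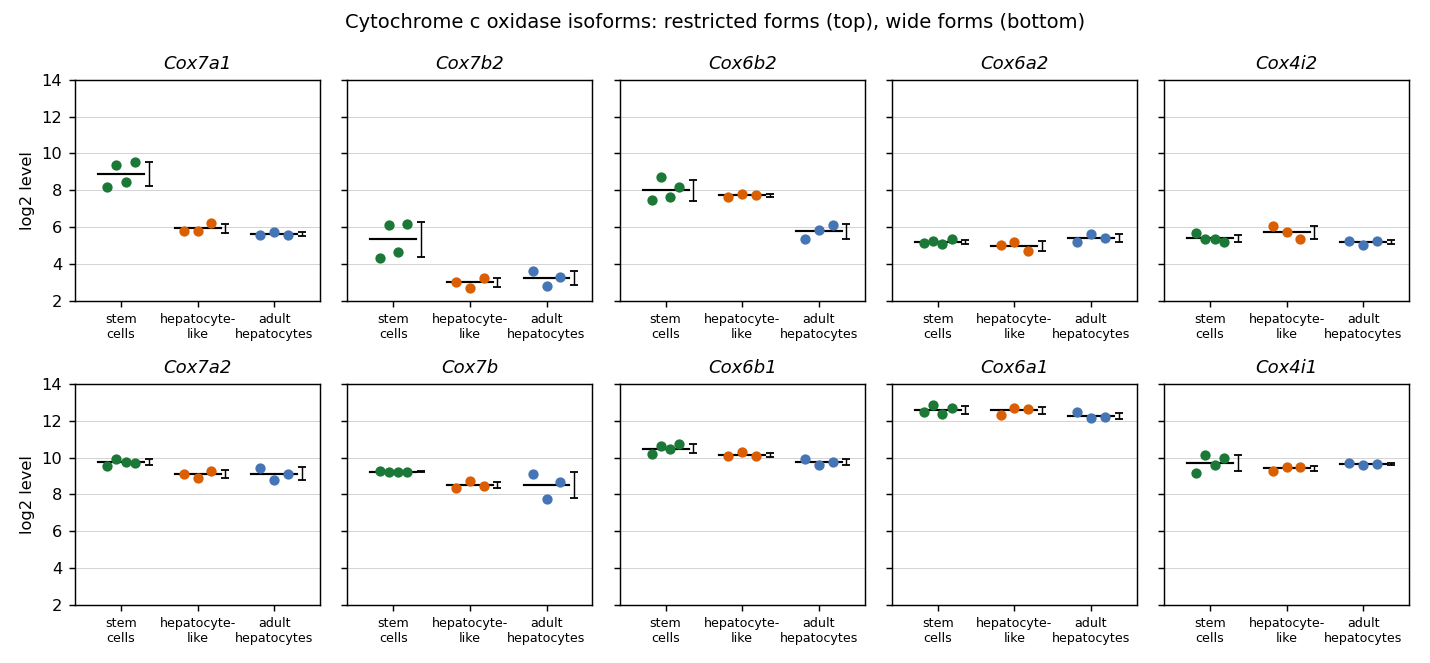
Log2 level (vertical axis) of 5 restricted complex IV forms (top) and their widely expressed partners (bottom) on each of 10 arrays. Points are arrays, horizontal lines group means, and brackets 1 SD to either side. Cox7a1 and Cox7b2 are higher on every stem cell array than on any other, and Cox6b2 is lowest on the adult hepatocyte arrays (5.35 to 6.12).

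The other cell types in which such forms are known were looked for among the marker genes. Of 8 heart and skeletal muscle markers, 0 differed between adult hepatocytes and stem cells by limma (1, Mb, at an unadjusted p under 0.05). Tnnt2 and Actc1 were called higher in hepatocyte-like cells than in stem cells, Actc1 at 7.44, 5.98 and 3.95 and so on replicates 1 and 2 only, where Cox7a1 stayed at 5.78 and 5.80. Of 5 germ cell and testis markers, Ddx4 was called higher in stem cells (6.25, 4.93, 5.92 and 5.08 against 3.44 to 3.76 elsewhere), highest on replicates 1 and 3, not on the replicates highest for Cox7a1. Of 3 brown fat markers, Ucp1 averaged 4.69 to 4.74 in the 3 groups, and Dio2 averaged 4.79 in adult hepatocytes, 4.19 in hepatocyte-like cells and 4.12 in stem cells, neither passing the test. Cidea, the third, read 5.22, 7.27, 4.85 and 6.78 in stem cells and 4.21 to 4.72 elsewhere, highest on the same replicates as Cox7a1. The part of any of these cells or replicates in the Cox7a1 and Cox7b2 levels was not tested.

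The promoters of the 3 called isoforms are shown beside those of their wide partners, since these are the subunits with the largest differences. The sequences are the 150 bases before the annotated start, from RefSeq on GRCm38.p6, on the strand of the gene, and stop at the start so that no transcribed base is included. They cover chr7:30184021-30184170 (plus strand) for Cox7a1, chr9:79759854-79760003 (minus) for Cox7a2, chr5:71548206-71548355 (minus) for Cox7b2, chrX:106015550-106015699 (plus) for Cox7b, chr7:4753095-4753244 (minus) for Cox6b2 and chr7:30626115-30626264 (minus) for Cox6b1. Capitals mark the letters GGGCGG, the core of an SP1 site, in Cox7a2 and Cox7b2, and the reverse complement of CCGGAAG, an ETS core, in Cox6b1.
Cox7a1: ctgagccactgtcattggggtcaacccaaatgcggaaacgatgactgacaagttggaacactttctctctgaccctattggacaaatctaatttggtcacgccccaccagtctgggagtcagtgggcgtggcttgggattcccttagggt
Cox7a2: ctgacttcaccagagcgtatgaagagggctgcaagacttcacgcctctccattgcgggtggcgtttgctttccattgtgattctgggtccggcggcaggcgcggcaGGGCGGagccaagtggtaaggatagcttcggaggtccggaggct
Cox7b2: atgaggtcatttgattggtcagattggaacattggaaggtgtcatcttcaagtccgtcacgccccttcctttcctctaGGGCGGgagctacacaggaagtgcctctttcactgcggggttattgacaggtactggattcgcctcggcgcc
Cox7b: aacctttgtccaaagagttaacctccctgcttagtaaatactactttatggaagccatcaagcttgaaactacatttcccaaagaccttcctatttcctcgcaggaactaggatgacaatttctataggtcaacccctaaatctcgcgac
Cox6b2: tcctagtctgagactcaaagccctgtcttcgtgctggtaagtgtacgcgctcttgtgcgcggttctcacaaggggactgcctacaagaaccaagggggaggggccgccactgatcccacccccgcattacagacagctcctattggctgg
Cox6b1: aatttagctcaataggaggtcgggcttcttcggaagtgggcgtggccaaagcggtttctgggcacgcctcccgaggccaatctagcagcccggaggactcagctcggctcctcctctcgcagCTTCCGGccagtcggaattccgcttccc
In the full windows of 300 bases (250 before and 50 after the start), CpG dinucleotides numbered 7 for Cox7a1 against 20 for Cox7a2, 10 for Cox6b2 against 17 for Cox6b1, and 10 for Cox7b2 against 5 for Cox7b. The restricted form thus held fewer CpGs in the 7a and 6b pairs and more in the 7b pair.

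The differences of the wide partners were each under 2-fold. Cox7a2 read 9.56, 9.94, 9.75 and 9.69 in stem cells, 9.13, 8.87 and 9.28 in hepatocyte-like cells, and 9.45, 8.79 and 9.13 in adult hepatocytes. It fell by 0.61 ± 0.19 in adult hepatocytes and by 0.64 ± 0.19 in hepatocyte-like cells, with no overlap of the stem cell arrays with the rest. Cox7b read 9.26, 9.21, 9.24 and 9.21 in stem cells, 8.36, 8.70 and 8.48 in hepatocyte-like cells, and 9.08, 7.74 and 8.68 in adult hepatocytes. It fell by 0.73 in adult hepatocytes (limma adjusted p = 0.0339) and was lower by 0.72 in hepatocyte-like cells (limma adjusted p = 0.0502). Cox6b1 read 10.20, 10.60, 10.44 and 10.71, then 10.07, 10.28 and 10.07, then 9.93, 9.58 and 9.76 in the same group order. It fell by 0.73 ± 0.17 in adult hepatocytes, whose arrays lay below all the others.

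None of the remaining restricted forms passed the test. Cox6a2, the heart and skeletal muscle form of subunit 6a, read 5.14, 5.21, 5.08 and 5.33 in stem cells, 5.02, 5.19 and 4.68 in hepatocyte-like cells, and 5.20, 5.62 and 5.41 in adult hepatocytes. Its wide partner Cox6a1 read 12.45, 12.85, 12.39 and 12.70, then 12.33, 12.70 and 12.65, then 12.46, 12.14 and 12.18. The groups of Cox6a1 overlapped, and it passed no test either. Cox4i2, a form of subunit 4 known from lung and low oxygen, read 5.65, 5.33, 5.37 and 5.18 in stem cells, 6.07, 5.72 and 5.32 in hepatocyte-like cells, and 5.24, 5.04 and 5.25 in adult hepatocytes. Its partner Cox4i1 read 9.16, 10.12, 9.59 and 9.95, then 9.26, 9.48 and 9.49, then 9.68, 9.58 and 9.64. The hepatocyte-like arrays of Cox4i2 lay above the adult ones, by 0.52 (95% interval 0.08 to 0.96, limma adjusted p = 0.0629).

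Cox8b, the muscle form of subunit 8, read 4.05, 3.80, 3.89 and 4.06 in stem cells, 3.84, 3.98 and 3.83 in hepatocyte-like cells, and 3.51, 3.89 and 4.51 in adult hepatocytes. Cox8c, the testis form, read 3.74, 3.93, 3.64 and 3.54, then 3.73, 3.77 and 3.40, then 3.65, 3.70 and 3.90. Both lay below the array medians with overlapping groups. The wide form Cox8a read 10.96, 11.34, 10.73 and 11.26 in stem cells, 10.64, 10.99 and 10.89 in hepatocyte-like cells, and 10.80, 10.22 and 10.61 in adult hepatocytes. It fell by 0.53 in adult hepatocytes, although its groups overlapped. Ndufa4l2, a gene known to be induced by low oxygen, read 5.62, 5.51, 5.43 and 5.26, then 5.61, 5.0 and 4.43, then 4.80, 5.15 and 5.28. Its partner Ndufa4, a subunit of complex IV despite its name, read 10.67, 10.94, 10.84 and 10.83, then 10.59, 10.76 and 10.75, then 11.13, 10.23 and 10.73. Neither of these last genes passed the test.

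The isoform balance was taken on each array as the log2 level of 1 form minus that of the other, and its difference between groups was tested over arrays. For Cox7a1 minus Cox7a2 it differed by -2.65 in adult hepatocytes against stem cells and by -2.31 in hepatocyte-like cells against stem cells, without overlap of the groups. For Cox6b2 minus Cox6b1 it differed by -1.51 in adult hepatocytes, by 0.06 in hepatocyte-like cells, and by 1.56 between hepatocyte-like and adult cells. For Cox7b2 minus Cox7b the differences from stem cells were -1.37 in adult hepatocytes and -1.62 in hepatocyte-like cells. In all, 10 pairs were compared in 3 ways, giving 30 exact permutation tests (2-sided). None passed after Benjamini-Hochberg adjustment: the smallest p the design allows is 0.0286 with 4 arrays against 3 and 0.1 with 3 against 3, and the smallest adjusted p was 0.171.

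Among the 3 genes for the ring subunit c of the ATP synthase, which encode the same mature protein behind different import sequences, the levels ran in different orders. Atp5g2 read 11.32, 11.83, 11.25 and 11.77 in stem cells, 11.04, 10.87 and 11.10 in hepatocyte-like cells, and 10.79, 10.50 and 10.67 in adult hepatocytes. The 3 groups did not overlap, with stem cells highest and adult hepatocytes lowest. From stem cells it fell by 0.89 ± 0.18 in adult hepatocytes (limma adjusted p = 0.00125) and fell by 0.53 ± 0.18 in hepatocyte-like cells (limma adjusted p = 0.0406). Atp5g3 read 9.09, 9.40, 9.26 and 9.23, then 8.93, 8.56 and 9.20, then 9.28, 9.45 and 9.41, and passed no test. Atp5g3 minus Atp5g2 differed by 1.03 in adult hepatocytes against stem cells and by -0.83 in hepatocyte-like against adult cells (exact permutation test over arrays, adjusted p = 0.171 and 0.273). Atp5g1 read 6.13, 6.20, 6.71 and 6.74, then 5.61, 5.64 and 5.90, then 5.42, 6.12 and 6.20. It fell by 0.73 ± 0.23 in hepatocyte-like cells against stem cells (limma adjusted p = 0.0282).

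Over the whole set, most members had a lower mean in hepatocyte-like cells than in stem cells, and most a lower mean than in adults, mainly by less than 2-fold. In hepatocyte-like cells against stem cells, 70 of 76 members were below 0, with a median of -0.34, against 11373 of 22180 genes and a median of -0.01. Of the 76, 22 fell (14.3% of all genes did so) and 4 of these were called (7.35% of all genes). No member rose in limma, where 14.5% of all genes rose and 8.61% were called higher. At an unadjusted p under 0.05, 0 members were higher, against 4121 of 22180 genes. The 22 fallen members were 11 of complex I, 2 of complex III, 5 of complex IV and 4 of the ATP synthase. Without hepatocyte-like replicate 2 the count fell from 22 to 13.

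Against adult hepatocytes the hepatocyte-like group had a median difference of -0.21 over the 76 members (all genes -0.04). Of the 76 members 58 were below 0, against 11769 of 22180 genes, and 22 members fell and 1 rose. Among all genes 14.6% fell and 21.5% rose. After a further quantile normalization of the arrays 21 members fell and 7 rose, and 4 were called lower and 1 higher. Called were 1 member in each direction, Ndufa6 lower (9.12% of all genes) and Cox6b2 higher. The 22 were 13 of complex I, 5 of complex III, 1 of complex IV and 3 of the ATP synthase. Both comparisons use the same hepatocyte-like arrays, and without replicate 2 of these the count fell from 22 to 14. Without hepatocyte-like replicate 3, 3 members were called lower in place of 1, and without adult replicate 3, 2 were.

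Adult hepatocytes against stem cells gave a mixed picture, with a median of -0.12 (all genes 0.05). Of the 76 members, 5 rose (18.3% of all genes) and 14 fell (23.2%). None rose by 2-fold in limma, where 11.0% of all genes did. At an unadjusted p under 0.05, 6 members were higher, against 4812 of 22180 genes. Of the 14, 9 belonged to complex IV, 3 to the ATP synthase and 2 to complex I. The 14 became 7 without adult replicate 2, and the 5 became 3 without adult replicate 3 or stem cell replicate 4. The 3 called lower became 6 without adult replicate 1.

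**Figure D2:**
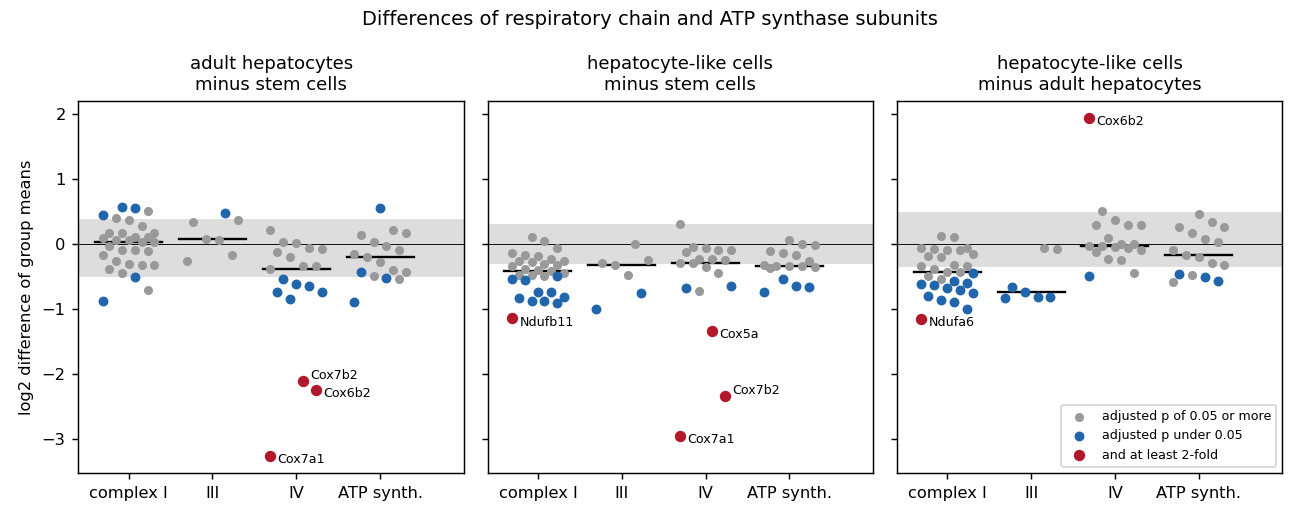
Log2 difference of group means (vertical axis) for each subunit, by complex, in the 3 comparisons. Grey points have an adjusted p of 0.05 or more, blue points under 0.05, and red points also differ by at least 2-fold. Black lines are medians per complex and the grey band holds the middle 50% of all 22180 genes. The medians of complexes I and III lie below 0 in both comparisons of the hepatocyte-like cells, and the 3 lowest points of the left panel are Cox7a1 (-3.26), Cox6b2 (-2.24) and Cox7b2 (-2.10).

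In complex I, 11 of 31 subunits fell in hepatocyte-like cells against stem cells and 13 against adult hepatocytes, and none rose. Of all genes 14.3% and 14.6% fell. Between adult hepatocytes and stem cells 3 rose and 2 fell (18.3% and 23.2% of all genes). The median over its 31 subunits was -0.41 against stem cells, -0.43 against adult hepatocytes, and 0.04 for adult hepatocytes against stem cells. Members named below other than those called were chosen after their values were seen. The NADH-binding module holds the flavin and several iron-sulfur clusters. Ndufv1, the flavin-carrying subunit of that module, read 9.03, 9.33, 9.25 and 9.20 in stem cells, 8.45, 8.11 and 8.41 in hepatocyte-like cells, and 9.25, 9.54 and 9.18 in adult hepatocytes. No hepatocyte-like array reached either other group, and the level was lower by 0.88 ± 0.16 than in stem cells and by 1.0 ± 0.17 than in adult hepatocytes (limma adjusted p = 0.00103 and 0.00044). The difference from adult hepatocytes was just short of 2-fold before rounding, and so was not called. It passed 2-fold in some alternatives, among them median centring (-1.05) and array weights (-1.01). Ndufs1, the largest subunit of the complex, fell by 0.89 ± 0.22 against adult hepatocytes, and against stem cells differed by -0.38 (limma adjusted p = 0.203). Ndufv2, which carries a further iron-sulfur cluster, was highest in stem cells and fell by 0.50 in adult hepatocytes and by 0.83 in hepatocyte-like cells.

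The module that passes electrons on to ubiquinone held the only complex I subunit called between the hepatocyte-like and adult cells. Ndufa6 (17319619), an accessory subunit there, read 8.88, 9.21, 9.07 and 9.44 in stem cells, 8.09, 8.29 and 8.84 in hepatocyte-like cells, and 9.90, 9.20 and 9.59 in adult hepatocytes. Hepatocyte-like arrays lay below all others. The difference from adult hepatocytes was -1.15 ± 0.24 (limma adjusted p = 0.00192), but -0.98 without adult replicate 1 and -0.99 without hepatocyte-like replicate 1, which is short of 2-fold. Of the 7 subunits of this module, 4 fell against stem cells and 4 against adult hepatocytes, beside the same 14.3% and 14.6% of all genes. Ndufs8, an iron-sulfur protein, fell by 0.90 ± 0.19 and by 0.79 ± 0.20 in these comparisons. Ndufs3, a core subunit next to it, rose by 0.57 ± 0.15 in adult hepatocytes over stem cells and fell by 0.75 ± 0.16 in hepatocyte-like cells against adult hepatocytes. Ndufa7, an accessory subunit, was highest in stem cells and fell by 0.87 in adult hepatocytes and by 0.74 in hepatocyte-like cells.

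In the membrane arm, which pumps protons, 5 of 17 subunits fell in hepatocyte-like cells against stem cells and 7 of 17 against adult hepatocytes, where 14.3% and 14.6% of all genes fell. Ndufb11 (17540490), an X-linked accessory subunit, read 5.56, 6.70, 5.94 and 6.49 in stem cells, 5.09, 4.61 and 5.41 in hepatocyte-like cells, and 6.43, 5.04 and 4.90 in adult hepatocytes. The hepatocyte-like arrays lay below the stem cell arrays, and adult replicate 1 lay more than 1 above the other adult arrays. The difference of -1.14 ± 0.37 against stem cells was called at a limma adjusted p of 0.0354. Leaving out hepatocyte-like replicate 1 or 2 ended this call (limma adjusted p = 0.0691 and 0.143), as did leaving out stem cell replicate 2 or 4 (limma adjusted p = 0.0971 and 0.0882). Against stem cells the adult arrays differed by -0.71, and by -1.20 without adult replicate 1 (limma adjusted p = 0.00925). Ndufb5 and Ndufb8, accessory subunits of the same arm, fell by 0.81 and 0.87 against stem cells and by 0.85 and 0.56 against adult hepatocytes. Ndufa8 and Ndufb10, accessory subunits with disulfide bonds, rose in adult hepatocytes over stem cells by 0.56 and 0.45.

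Complex III had a median of -0.74 over 7 subunits in hepatocyte-like against adult cells, of which 5 fell (14.6% of all genes did so). Among the 4 complexes of the set this was the lowest median in that comparison. Uqcrc1, a core protein of the complex, read 10.57, 10.91, 10.82 and 10.86 in stem cells, 9.85, 9.64 and 9.92 in hepatocyte-like cells, and 10.26, 10.69 and 10.68 in adult hepatocytes. It fell by 0.99 ± 0.16 against stem cells (limma adjusted p = 0.000579) and by 0.74 ± 0.18 against adult hepatocytes, with no overlap in either comparison. Uqcrfs1, the Rieske iron-sulfur protein, read 7.29, 7.52, 7.38 and 7.10, then 7.08, 6.79 and 7.14, then 7.87, 7.69 and 7.88. It was highest in adult hepatocytes, 0.49 ± 0.16 above stem cells and 0.81 ± 0.17 above hepatocyte-like cells. The small subunits Uqcr11 and Uqcrq and the core protein Uqcrc2 also fell from adult to hepatocyte-like cells (differences of -0.82, -0.81 and -0.66), whereas Uqcrb and Uqcrh passed no test.

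In complex IV, 9 of 19 members were lower in adult hepatocytes than in stem cells, the 3 called isoforms among them. Of all genes 23.2% were lower in this comparison and 15.6% called lower, so that the called share of complex IV was near that of all genes. Its median was -0.38 in adult hepatocytes and -0.29 in hepatocyte-like cells against stem cells, and -0.03 in hepatocyte-like against adult cells. Cox5a (17517727), which contacts the catalytic core and is no tissue form, read 10.89, 11.03, 10.90 and 10.96 in stem cells, 9.69, 9.25 and 9.89 in hepatocyte-like cells, and 10.05, 10.09 and 10.17 in adult hepatocytes. The 3 groups did not overlap, with hepatocyte-like cells lowest. It fell by 1.33 ± 0.17 in hepatocyte-like cells (2.52-fold, limma adjusted p = 6.17e-05) and by 0.84 ± 0.17 in adult hepatocytes (limma adjusted p = 0.00104). Its neighbour in the complex, Cox5b, differed by at most 0.08 between groups. Cox7c, a subunit with 1 form, fell by 0.64 and 0.67 in adult and hepatocyte-like cells but read only 4.50 to 5.80, near the array medians.

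The ATP synthase had a median of -0.33 in hepatocyte-like cells and -0.19 in adult hepatocytes against stem cells over 17 genes. The catalytic beta subunit Atp5b was even within groups. It read 12.47, 12.48, 12.43 and 12.50 in stem cells, 12.14, 11.97 and 12.17 in hepatocyte-like cells, and 12.01, 12.07 and 12.08 in adult hepatocytes. It fell by 0.42 ± 0.13 in adult hepatocytes (limma adjusted p = 0.0229) and was lower by 0.37 in hepatocyte-like cells (limma adjusted p = 0.052), with stem cells above all other arrays. The alpha subunit Atp5a1 read 12.00, 11.87, 11.96 and 11.84, then 11.27, 11.25 and 11.32, then 11.70, 11.72 and 11.75. It fell in hepatocyte-like cells by 0.64 ± 0.13 against stem cells and 0.45 ± 0.14 against adult hepatocytes. Atp5j, coupling factor 6 of the stalk, rose in adult hepatocytes by 0.56 ± 0.16 over stem cells and fell by 0.57 ± 0.17 from adult to hepatocyte-like cells.

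The complexes were also followed array by array, as the median deviation of their subunits from the mean of the 3 groups. For complex I it was -0.30, -0.31 and -0.20 in hepatocyte-like cells, -0.02, 0.33, 0.18 and 0.20 in stem cells, and 0.34, -0.07 and 0.15 in adult hepatocytes. Hepatocyte-like arrays were the lowest, and adult replicate 2 came nearest to them. For complex III it was -0.30, -0.59 and -0.24 in hepatocyte-like cells, -0.01, 0.14, 0.21 and 0.06 in stem cells, and 0.47, 0.16 and 0.30 in adult hepatocytes. For complex IV the adult arrays stood at -0.08, -0.38 and -0.08, the hepatocyte-like ones at -0.16, 0.00 and -0.10, and the stem cells at 0.14, 0.40, 0.25 and 0.23. Adult and hepatocyte-like arrays therefore overlapped in complex IV and not in complex III. For the ATP synthase the stem cells stood at 0.07, 0.23, 0.21 and 0.14, the hepatocyte-like cells at -0.16, -0.24 and -0.10, and the adult hepatocytes at 0.06, -0.04 and 0.05.

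**Figure D3:**
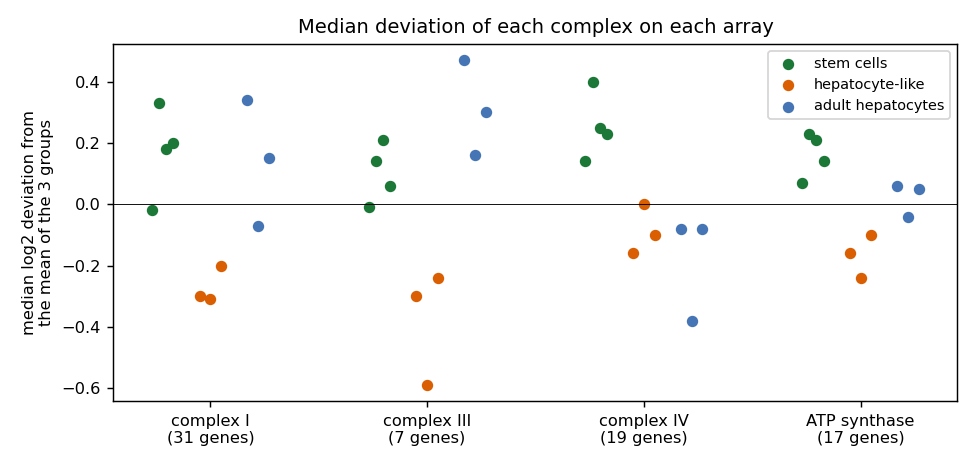
Median log2 deviation of the subunits of each complex from the mean of the 3 group means (vertical axis), on each of 10 arrays. Each point is an array, coloured by group. The hepatocyte-like arrays are below the others for complexes I and III and the ATP synthase, while for complex IV they overlap the adult hepatocytes, of which replicate 2 is the lowest at -0.38.

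The partners of these complexes were followed in lists of related genes. All 4 subunits of complex II, succinate dehydrogenase, fell from adult to hepatocyte-like cells, with a median of -1.18, and had the order adult hepatocytes, stem cells, hepatocyte-like cells by group mean. Of all genes 14.6% fell in this comparison and 9.12% were called lower, with a median of -0.04. Sdha, the flavoprotein, read 10.41, 10.21, 10.47 and 10.06 in stem cells, 9.83, 9.36 and 9.84 in hepatocyte-like cells, and 11.05, 10.92 and 11.01 in adult hepatocytes. It rose by 0.70 ± 0.17 in adult hepatocytes, fell by 0.61 ± 0.17 in hepatocyte-like cells, and was lower by 1.32 ± 0.18 in hepatocyte-like than in adult cells (limma adjusted p = 7.75e-05). Sdhb and Sdhc, the iron-sulfur protein and a membrane anchor, were also called lower in hepatocyte-like than in adult cells, by 1.10 and 1.25. Sdhd, the other anchor, fell by 0.85.

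Among the electron and nucleotide carriers, Slc25a4 differed more than any subunit. Cycs, the somatic cytochrome c, averaged 10.44 in adult hepatocytes and hepatocyte-like cells and 10.40 in stem cells, and passed no test. Cyct, the testis form, read 7.79, 6.65, 7.92 and 6.66 in stem cells, 4.50, 4.59 and 4.65 in hepatocyte-like cells, and 4.73, 4.57 and 4.53 in adult hepatocytes. It fell by 2.64 ± 0.29 and 2.67 ± 0.29, and its highest arrays were stem cell replicates 1 and 3, not 2 and 4 as for Cox7a1. Slc25a4, the heart and muscle ADP/ATP carrier, read 8.89, 8.59, 8.75 and 8.48 in stem cells, 10.04, 10.01 and 9.84 in hepatocyte-like cells, and 5.33, 4.74 and 4.95 in adult hepatocytes. Hepatocyte-like cells stood 4.95 ± 0.19 above adult hepatocytes (31.0-fold, limma adjusted p = 3.22e-10) and 1.28 ± 0.17 above stem cells. Slc25a5, the widely expressed carrier, averaged 12.04 in stem cells, 11.22 in hepatocyte-like cells and 11.64 in adult hepatocytes.

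Atpif1, the inhibitor of the ATP synthase, was lower in adult hepatocytes than in both other groups. It read 10.92, 11.12, 10.95 and 11.00 in stem cells, 10.77, 11.19 and 11.13 in hepatocyte-like cells, and 9.22, 8.28 and 8.75 in adult hepatocytes. From stem cells to adult hepatocytes it fell by 2.25 ± 0.21 (4.75-fold, limma adjusted p = 1.41e-06). Hepatocyte-like cells stood 2.28 ± 0.22 above adult hepatocytes (limma adjusted p = 3.24e-06). Hepatocyte-like and stem cells differed by 0.03 (95% interval -0.42 to 0.48). The 13 mitochondrially encoded subunits were not analysed here.

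**Figure D4:**
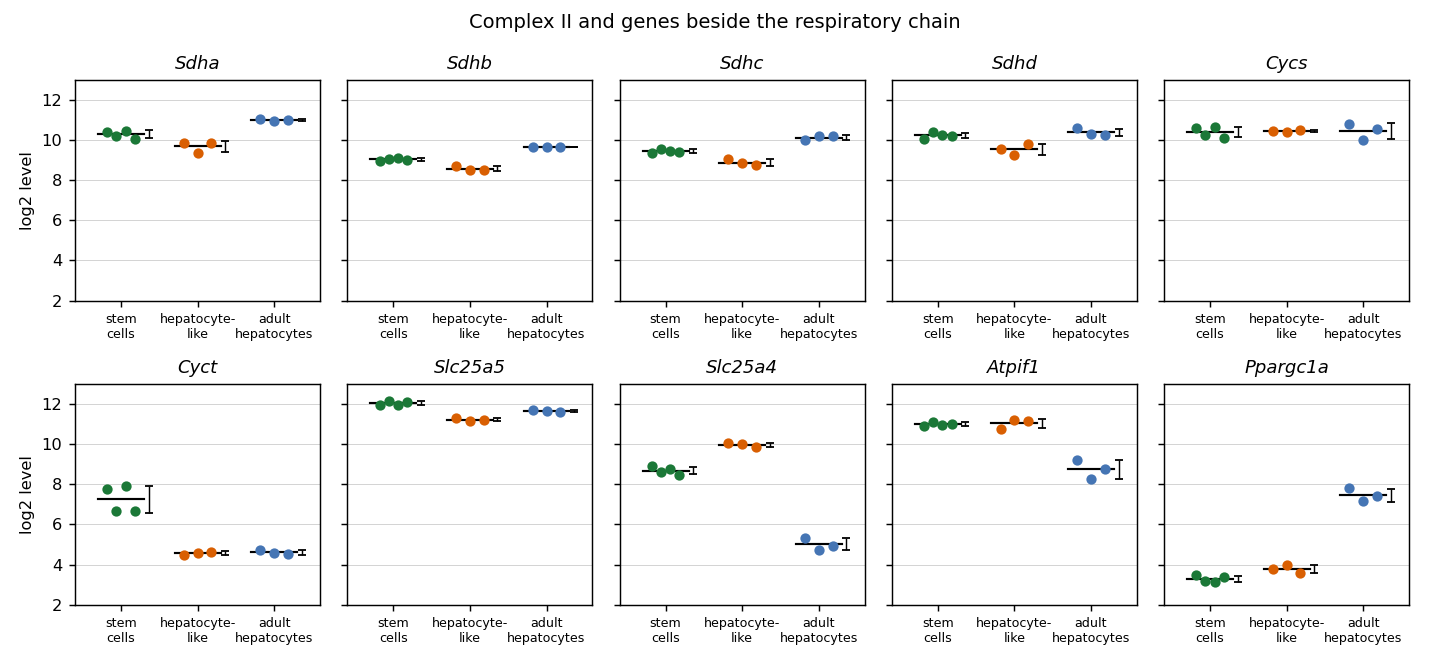
Log2 level (vertical axis) on each of 10 arrays of the 4 complex II subunits, both cytochromes c, both main ADP/ATP carriers, the ATP synthase inhibitor Atpif1 and the coactivator Ppargc1a. Points are arrays, horizontal lines group means, and brackets 1 SD to either side. Slc25a4 and Atpif1 are lowest in adult hepatocytes, and Ppargc1a is highest there (7.16 to 7.81).

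Assembly factors, which build the complexes without staying in them, were counted by complex. Of 14 for complex I, 9 fell and 1 rose in hepatocyte-like cells against stem cells, and 8 fell against adult hepatocytes. Of all genes, 14.3% fell and 14.5% rose in the former comparison, and 14.6% fell in the latter. From adult to hepatocyte-like cells Ndufaf1 fell by 1.38, Acad9 fell by 1.46 and Ecsit fell by 1.34. These 3 act together in building the membrane arm, and Ndufaf1 was also called higher in adult hepatocytes than in stem cells, by 1.14. Ndufaf5, which modifies Ndufs7, fell by 1.36 in adult hepatocytes and fell by 1.17 in hepatocyte-like cells against stem cells, and Ndufaf6 fell by 1.11 in the latter. Of 20 factors for complex IV, 5 fell in each comparison with stem cells. Of all genes 23.2% fell in adult hepatocytes, near the share of these factors, and 14.3% in hepatocyte-like cells. Cox16 and Coa5 rose in adult hepatocytes, by 0.85 and 0.73, where 18.3% of all genes rose. Among the factors that fell were the copper chaperones Cox17, by 1.08 in adult hepatocytes, and Sco1, by 1.17 in hepatocyte-like cells. Lrpprc, which stabilises mitochondrial messenger RNA, fell by 1.18 from adult to hepatocyte-like cells, and Fmc1, a factor of the ATP synthase, fell by 1.47. Of the 6 factors for complex III, 2 fell in each comparison, none of them by 2-fold, where 14.3% to 23.2% of all genes fell.

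Of 21 regulators of mitochondrial genes, 3 were called higher and 4 lower in adult hepatocytes than in stem cells, near the shares of all genes (11.0% and 15.6%). Against stem cells 1 was called higher and 2 lower in the hepatocyte-like cells, again near the shares of all genes (8.61% and 7.35%). Between hepatocyte-like and adult cells 3 were called higher and 5 lower, beside 13.9% and 9.12% of all genes. Ppargc1a, the coactivator that drives mitochondrial biogenesis, read 3.48, 3.17, 3.11 and 3.36 in stem cells, 3.77, 3.98 and 3.58 in hepatocyte-like cells, and 7.81, 7.16 and 7.42 in adult hepatocytes. It was 4.18 ± 0.19 higher in adult hepatocytes than in stem cells (limma adjusted p = 1.22e-09), and hepatocyte-like and stem cells differed by 0.50 (limma adjusted p = 0.0659). Ppara, a receptor for fatty acids, and Esrrg, an oestrogen-related receptor, were called higher in adult hepatocytes than in stem cells, by 4.84 and 1.39. Pprc1, a coactivator related to Ppargc1a, read 9.27, 9.34, 9.15 and 9.30 in stem cells, 8.13, 7.51 and 7.91 in hepatocyte-like cells, and 6.40, 6.19 and 6.30 in adult hepatocytes. Its 3 groups did not overlap, and Nrf1, a transcription factor for respiratory genes, had the same order, at means of 7.53, 6.60 and 5.74. Hif1a, the low-oxygen factor, was called higher in hepatocyte-like cells than in stem cells by 1.25 and than in adult hepatocytes by 1.13. With the mean over its clusters, these became 0.61 and 0.58 and passed no test. The difference from adult hepatocytes was 0.98 without hepatocyte-like replicate 3.

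The promoters of the members were searched for the letters bound by some of these regulators. Windows of 300 bases were found for 61 of the 76 members (66 windows) among 32851 windows of all genes, from RefSeq on GRCm38.p6. The motifs, read on both strands, were GCATGCGC, the core of the NRF1 site, the longer NRF1 palindrome that holds this core on either strand, TCAAGGTCA for oestrogen-related receptors, AAGATGGC for YY1, CCGGAAG for ETS factors and GGGCGG for SP1. The NRF1 palindrome was in 7.58% of member windows against 0.971% of all windows, and the core in 13.6% against 2.71%. YY1 letters were in 13.6% against 2.75%, ETS letters in 22.7% against 8.86%, and SP1 letters in 39.4% against 35.7%. The receptor motif was in the window of 1 member, Atp5g3, and in 0.423% of all windows. Member windows also had more CpG dinucleotides, with a median of 19 against 7, and the part of this in the shares was not tested. A match is a description of the letters and no evidence of binding.

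The 5 members with the full NRF1 palindrome were Ndufa11, Uqcrc1, Cox6a1, Atp5g2 and Atp5k. The promoter of Atp5g2, the ring subunit gene whose groups did not overlap, is shown as an example. Its 150 bases before the start lie at chr15:102671048-102671197 on the minus strand, and capitals mark the NRF1 palindrome, which begins 42 bases before the start.
Atp5g2: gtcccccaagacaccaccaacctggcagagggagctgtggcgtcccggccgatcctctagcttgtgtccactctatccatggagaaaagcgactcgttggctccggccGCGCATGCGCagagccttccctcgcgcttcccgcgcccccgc
Between hepatocyte-like and stem cells these 5 genes differed by -0.53 (Ndufa11), -0.99 (Uqcrc1), -0.04 (Cox6a1), -0.53 (Atp5g2) and -0.65 (Atp5k), and all but Cox6a1 fell. Of all 76 members 28.9% fell in this comparison, and of all genes 14.3%. Between adult hepatocytes and stem cells the 5 genes differed by -0.44, -0.25, -0.33, -0.89 and -0.15 in the same order. Of these, the difference of Atp5g2 passed the test, where 23.2% of all genes fell. The part of the motif in these differences was not tested. YY1 letters were in 9 members, 6 of complex I and 3 of the ATP synthase.

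**Figure D5:**
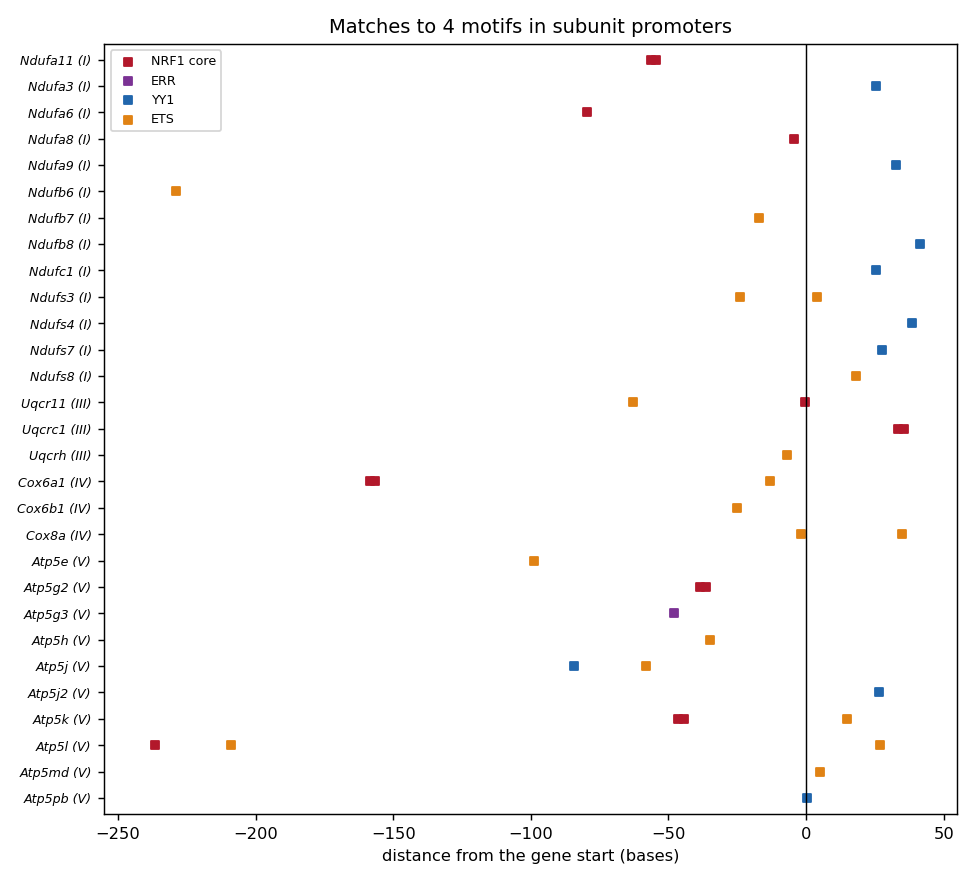
Positions of matches to the NRF1 core, ERR, YY1 and ETS motifs in subunit promoters, as distance in bases from the annotated start (horizontal axis, start at 0), 1 gene per line with its complex in brackets and V for the ATP synthase. Members without a match to these 4 are left out. YY1 matches of complex I lie after the start, and NRF1 core matches mostly before it.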

How the data were processed

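RNA of 10 mouse samples was measured on Affymetrix arrays. The authors deposited a table of log2 values per transcript cluster, made with RMA per the submitters' processing notes, which also list the Transcriptome Analysis Console, R 3.3.1 and oligo 1.38.0. No source used here gives the genome build or the level at which RMA summarised probes. The values lay between 1.27 and 13.58, with array medians of 4.91 to 5.07, and were used as deposited. Signal over background is not in the table, so precision is limited by the number of arrays.

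Of 41345 clusters, 23521 carried 1 gene symbol and 1814 several, which were left out together with unnamed ones. This left 22180 genes. All 10 arrays entered a fit in limma 3.58.1 (R 4.3.3) with group as the only term, Benjamini-Hochberg adjustment over all genes, an adjusted p under 0.05 and, for a call, a log2 difference of 1. Isoform ratios were tested per array with an exact permutation test (scipy 1.17.1). Promoters came from RefSeq on GRCm38.p6.

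The members and gene lists were chosen with earlier results of these data known. Values are given on each array for every isoform pair, and by complex for up to 4 called members with the largest difference in each direction. Other members are given by counts or, where said, were chosen after their values were seen. Likewise up to 4 called genes were named per related list, and others there were chosen after their values were seen.

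The alternatives were another quantile normalization, median centring, array weights, averaging the clusters of a gene, a filter on dim genes, other thresholds, a replicate block, and leaving out each replicate. Replicate numbers showed no sign of pairing the samples, although so few arrays cannot exclude it. Deviations of same-numbered arrays correlated between -0.19 and 0.14, and those of different-numbered arrays between -0.25 and 0.23. The calculation was tested on simulated data.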

Additional observations from a re-analysis of the deposited data

Results flagged for a closer look

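Among 154 subunit and related genes, 8 had a stem cell array standing apart from the other 3, with a gap whose share of the group's range was above Dixon's 95% critical value for 4 samples. Chance flags about 1 in 20 groups.

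On stem cell replicate 1, Ndufb8 of complex I read 7.08 (the others 7.36 to 7.42), the complex IV assembly factor Coa7 6.94 (7.18 to 7.22), and the mitochondrial DNA helicase Twnk 7.51 (7.70 to 7.74). On replicate 2, Nubpl, which inserts iron-sulfur clusters into complex I, read 6.84 (6.44 to 6.48). On replicate 3, Ndufb5 of complex I read 8.62 (8.26 to 8.31), the complex I assembly factors Ndufaf2 and Ndufaf8 read 6.59 (5.97 to 6.04) and 7.78 (7.29 to 7.33), and the oestrogen-related receptor Esrra read 7.03 (7.20 to 7.23). No gene stood apart in this way on replicate 4.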

How the results depend on the processing

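No called direction was reversed under any alternative. Of 50 calls among the named genes, 37 held in every setting that kept the gene and 13 were lost in at least 1. The counts of members called higher and lower were 0 and 3 for adult hepatocytes against stem cells, 0 and 4 for hepatocyte-like against stem cells, and 1 and 1 for hepatocyte-like against adult cells. With an adjusted p alone they became 5 and 14, 0 and 22, and 1 and 22. At 1.5-fold the lower counts became 10, 18 and 16, and the shares of all genes at this threshold were not calculated. A further quantile normalization gave 5 and 4 lower for the first and last comparison. Median centring and array weights each gave 2 lower for the last. By adjusted p alone, that quantile normalization gave 7 higher and 21 lower for the last comparison. Leaving out each array gave 3 to 6 lower, 3 to 6 lower, and 1 to 3 lower in the same order. In these settings the log2 ratio of Cox4i2 to Cox4i1 in adult hepatocytes against stem cells ran from -0.29 to 0.14. That of Cox6b2 to Cox6b1 in hepatocyte-like against stem cells ran from -0.05 to 0.25. That of Ndufa4l2 to Ndufa4 ran from -0.53 to 0.10 for adult hepatocytes against stem cells and from -0.43 to 0.25 for hepatocyte-like against adult cells. The cause of these shifts was not tested.

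No sign of pairing by replicate number was seen, although so few arrays cannot exclude it. With the replicate number as a block in the fit of all groups, 3 members were called lower in each comparison with stem cells, and 1 in each direction between hepatocyte-like and adult cells. Ndufb11 was then no longer called in hepatocyte-like against stem cells (-1.03, limma adjusted p = 0.118). By adjusted p alone the block gave 8, 14 and 17 lower members.

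The table holds no background signal, and 11 members averaged under 5.5, where differences are least certain. The filter on dim genes, under 5.5 on at least 8 arrays, left out 9 members, Cox7b2 among them. With it, 2 members were called lower in adult hepatocytes and 3 in hepatocyte-like cells, each against stem cells.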

Other observations

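Some subunits share their array cluster with a pseudogene, a copy or another gene and were left out of the counts above. Of 10 such clusters, 5 are given here, chosen after their values were seen. The cluster of Uqcr10, a small subunit of complex III, and Gm6293 averaged 6.72 in stem cells, 5.60 in hepatocyte-like cells and 5.86 in adult hepatocytes. It fell by 1.12 in hepatocyte-like cells (limma adjusted p = 0.00299) and by 0.86 in adult hepatocytes (limma adjusted p = 0.00849). The cluster of Ndufs6, an iron-sulfur-linked subunit of complex I, and Ndufs6b averaged 10.21, 9.31 and 9.84 in the same order, and fell by 0.90 in hepatocyte-like cells (limma adjusted p = 0.00517). A second cluster of this pair averaged 6.57, 5.78 and 6.33 and fell by 0.79 there (limma adjusted p = 0.0262). The cluster of Cox6c, a subunit of complex IV, and Gm6265 averaged 11.46, 10.72 and 10.86, and fell by 0.74 in hepatocyte-like and by 0.60 in adult cells. A second cluster of that pair averaged 6.14, 5.61 and 5.79. It fell by 0.53 in hepatocyte-like cells, and differed by -0.35 in adult cells (limma adjusted p = 0.12). The genes within such a cluster cannot be told apart.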
